A study of Rattus norvegicus with 132 samples.

Results

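The medulla and the cortex of kidneys that had received both injuries of the study (group RM-HS) were compared in 18 regions of interest (ROIs), 9 in the medulla and 9 in the cortex, of 132 ROIs in all. Members were taken by their group and region labels alone, and no measured value chose them. The kidneys were those of rats, 3 in each of 4 groups (Sham, RM, HS and RM-HS). The series title places RM, HS and RM-HS among models of trauma-induced acute kidney injury. RM and HS are not expanded in the labels, and rhabdomyolysis (breakdown of skeletal muscle) and hemorrhagic shock are only their common reading. Strain, sex, age, dose and time after injury are not given in the sources used here, so that RM-HS is known only as the group with both labels and Sham as the group with neither.

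In GeoMx spatial profiling, probes hybridised to a thin section of fixed tissue carry barcodes that light releases from a chosen ROI, and the barcodes are then counted by sequencing. ROIs were drawn by hand on formalin-fixed, paraffin-embedded sections, and the probes were those of the mouse whole-transcriptome panel, so that genes carry mouse symbols and a probe may bind its rat transcript less well. An ROI holds many cells, and in such bulk tissue fewer cells of a type and less RNA per cell cannot be told apart. The labels do not tie ROIs to rats. Since 9 ROIs of an area come from 3 rats, some share an animal, and every p-value over ROIs given here is too small for that reason. Values are signals scaled by the authors to the upper quartile of each ROI, and differences are log2(signal + 1) in medulla minus cortex, so that a difference of 1 is a doubling and low genes are understated.

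The renal cortex holds glomeruli, the convoluted parts of the proximal tubule, which reclaim most of the filtered glucose, phosphate and amino acids, and the distal convoluted tubule. The medulla holds the loops of Henle and the collecting ducts. There the thick ascending limb reabsorbs salt without water, which builds the osmotic gradient that concentrates urine, and cells take up organic osmolytes to withstand it. The straight part of the proximal tubule and the thick ascending limb have high oxygen demand in a poorly oxygenated zone, and both are known sites of tubular injury in shock and in the pigment injury that follows muscle breakdown.

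All 18 ROIs lay on 1 plate, in 3 runs of neighbouring wells that each held 3 medullary and 3 cortical ROIs. Whether a run stands for 1 rat is not stated. The medullary wells of run 3 were separated from its other wells by a Sham run and are counted with it by position only. Reads, taken from the step between values of an ROI, numbered 838546 to 1832943 in medullary ROIs (median 1564807) and 622244 to 1269330 in cortical ROIs (median 920588). The negative probe, a measure of background, stood at 20.8 to 24.8 in the medulla and 24.8 to 35.1 in the cortex on the scaled signal. Depth and background thus moved with the area, and their part in single results was not tested beyond the alternative scaling given below. No pair among 153 pairs of the 18 ROIs was identical. The first principal component of the 18 ROIs carried 51.33% of the variance and separated the areas, and the second carried 11.38%. On the second the 3 runs lay apart in cortex, whereas in medulla run 2 lay apart and runs 1 and 3 overlapped.

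The area labels matched the segment markers. Slc12a1, the salt cotransporter of the thick ascending limb, was at 528, 664 and 712 (lowest, median, highest; n = 9) in RM-HS medulla and at 40.8, 56.6 and 75.9 in RM-HS cortex. Slc34a1, the phosphate transporter of the proximal tubule, was at 45.6, 53.7 and 58.5 in medulla and at 278, 334 and 569 in cortex. No medullary ROI overlapped a cortical one for either gene. Umod, another thick ascending limb marker, is not in the table used.

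In the fit across all genes, 966 of 8827 genes tested (10.9%) differed between medulla and cortex in RM-HS at an adjusted p under 0.05 (limma, Benjamini-Hochberg, two-sided). Of these, 500 (5.66%) were higher in medulla and 466 (5.28%) were lower. The ROIs of both areas did not overlap for 737 genes (8.35%), 361 (4.09%) with medulla above cortex and 376 (4.26%) with medulla below. In Sham, 1030 genes (11.7%) differed, 564 (6.39%) higher in medulla and 466 (5.28%) lower, and the ROIs of both areas did not overlap for 322 genes (3.65%), 157 (1.78%) with medulla above and 165 (1.87%) with medulla below. Sham ROIs were shallower than those of RM-HS, with median reads of 1042530 in medulla and 526350 in cortex, and did not all lie on the same plate. The part of depth and plate in the counts without overlap was not tested. The near balance of both directions rests on the scaling: with ROIs scaled to the negative probe instead, 2846 genes were called in RM-HS and 93.5% of them were higher in medulla, while the median of all genes shifted from -0.03 to 0.30. Called differences below are therefore relative to the upper quartile of each ROI. With 1 mean per well run and area, which leaves 3 values for each area, 413 genes were called. Of 115 called area differences of RM-HS that were followed gene by gene, 45 lost their call in that setting, and not each of these is marked below.

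Most genes that separated the areas in Sham had the same sign in RM-HS. Of the 564 genes higher in Sham medulla, 494 had the same sign in RM-HS and 253 were called higher there too, which is 44.9% of the Sham list and 50.6% of the RM-HS list of 500. Their median difference was 0.56 in Sham and 0.35 in RM-HS. Of the 466 genes lower in Sham medulla, 453 had the same sign and 219 were called lower again (47.0% of each list), with medians of -0.58 and -0.42. A gene called in one group and not in the other is not thereby different, so the difference of the differences was tested. It was called for 164 genes (1.86%; limma, adjusted), 57 (0.646%) with a larger medulla minus cortex value in RM-HS and 107 (1.21%) with a smaller one. Among the 564 medullary genes of Sham, 49 had a called smaller difference and 13 a called larger one. Among the 466 cortical genes of Sham, 4 had a called difference nearer to or beyond 0 and 15 a called difference further below it than in Sham. With ROIs scaled to the negative probe the share of larger departures among those called was 14.5% against 34.8% before. The counts over Sham genes depend on the choice of these genes from Sham values and are given as a description. Over all 8827 genes the 2 sets of differences had a Pearson r of 0.722 and a Spearman rho of 0.606, a description across genes that are not independent.

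**Figure D1:**
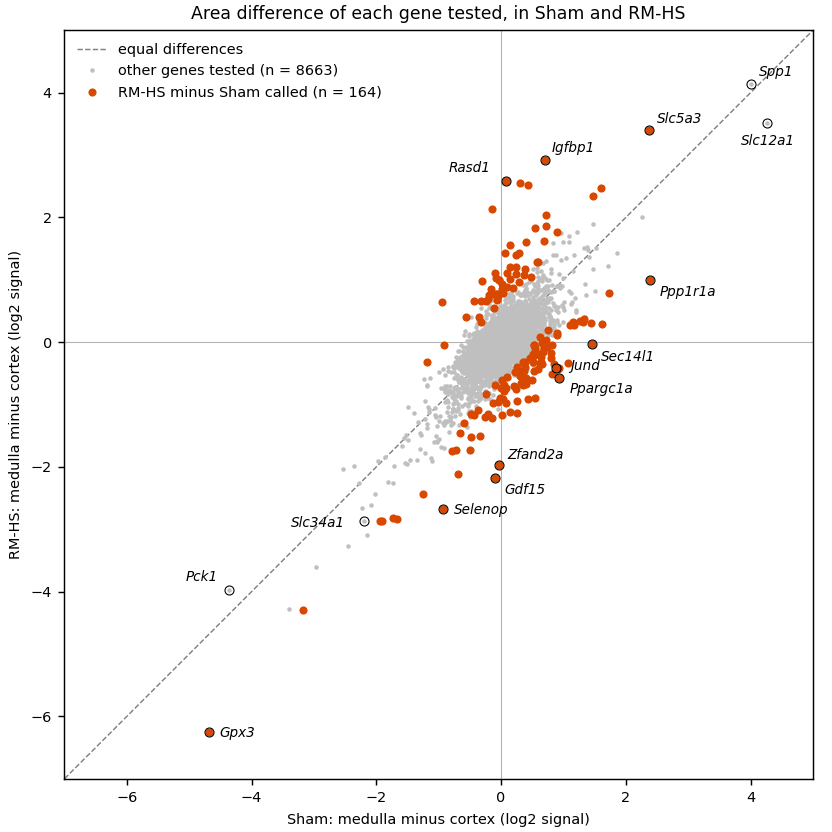
Each point is 1 of the 8827 genes tested, with the medulla minus cortex difference (log2 signal) in Sham on the x axis and in RM-HS on the y axis; orange points are the 164 genes whose 2 differences were called different, and the dashed line marks equal differences. Slc12a1 and Spp1 lie far to the upper right in both groups, Igfbp1 and Rasd1 lie above the dashed line, and Gdf15 and Zfand2a lie below it.

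Of 10 thick ascending limb genes tested, 6 were higher in RM-HS medulla and 1 was lower, against 10.9% of all genes called, and the same 7 genes were called in the same directions in Sham. The list's median difference was 0.68 in RM-HS and 0.69 in Sham, beside -0.03 and -0.05 for all genes. The summed signal of the list was 1422 to 1818 in RM-HS medulla and 1793 to 3917 in Sham medulla. In cortex it was 627 to 1035 in RM-HS and 632 to 1321 in Sham. Slc12a1 was 11.4-fold higher in medulla (log2 3.51 ± 0.20 SE, adjusted p = 9.37e-35, limma). In Sham medulla it was at 721, 1405 and 1887, so that every RM-HS medullary ROI lay below every Sham one, and the Sham area difference was 4.26 ± 0.20. The difference between RM-HS and Sham, -0.75 ± 0.28, was not called (adjusted p = 0.224). Kcnj1, the potassium channel that recycles potassium for Slc12a1, was at 135, 172 and 209 in RM-HS medulla and 47.8, 54.1 and 84.4 in cortex, a difference of 1.43 ± 0.17 that left no overlap.

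Ppp1r1a, an inhibitor of protein phosphatase 1, was the only member of the thick ascending limb list with a called departure of its area difference from Sham. It was at 111, 119 and 127 in RM-HS medulla and at 46.5, 58.8 and 96.6 in RM-HS cortex. In Sham medulla it was at 292, 351 and 493, and in Sham cortex at 51.2, 70.7 and 88.6. Its area difference was 0.99 ± 0.14 in RM-HS and 2.39 ± 0.14 in Sham, which is -1.40 ± 0.20 apart (adjusted p = 1.22e-07, limma). The medullary ranges of both groups did not overlap while the cortical ranges did. Egf, the urinary growth factor made by this segment (0.78 ± 0.19), and the tight junction genes Cldn10 (0.72 ± 0.20) and Cldn19 (0.65 ± 0.17) were also higher in RM-HS medulla. With 1 mean per well run and area, Slc12a1, Kcnj1 and Ppp1r1a remained called, and Egf (adjusted p = 0.0678), Cldn10 (0.0898) and Cldn19 (0.177) did not. Egf was also not called without RM-HS run 1 (adjusted p = 0.123), and Cldn19 without RM-HS run 3 (0.102).

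Other medullary segments were carried by fewer called genes. Of 9 thin limb and interstitial list members, 2 were higher in RM-HS medulla and 1 was lower, against 10.9% of all genes called. The small heat shock protein gene Cryab, abundant in the medulla, was at 75.2, 104 and 136 in medulla and 39.0, 43.8 and 49.6 in cortex (1.23 ± 0.21). Its areas did not overlap, and its departure from Sham was not called (adjusted p = 0.878). Slc14a1, a urea transporter of descending vasa recta, was lower by a small margin (-0.48 ± 0.17, adjusted p = 0.04995) and lost that call without any 1 of the RM-HS runs (adjusted p = 0.417, 0.204 and 0.0788). Its signal lay near background, exceeding 2 times the negative probe in 0 of 9 medullary and 0 of 9 cortical ROIs of RM-HS. Without the filter on low values no member of this list was called lower.

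Collecting duct markers were held on 2 lists, which were not tested against each other. Of 7 principal cell genes, 2 were higher and 1 was lower in RM-HS medulla, against 10.9% of all genes called. None of 6 intercalated cell genes was called in RM-HS. In Sham 2 genes of each list were higher in medulla and 2 principal cell genes were lower, against 11.7% of all genes called. Aqp2, the vasopressin-regulated water channel, was at 140, 175 and 190 in RM-HS medulla and 62.3, 101 and 225 in cortex, with overlap, and its difference of 0.59 ± 0.22 was not called (adjusted p = 0.0593). In Sham the Aqp2 difference was 0.98 ± 0.22 (adjusted p = 0.00036), and the departure of RM-HS from it, -0.39 ± 0.31, was not called. With a pseudocount of 5 Aqp2 passed the threshold in RM-HS (adjusted p = 0.0488). Aqp3, the basolateral water channel (0.62 ± 0.22), and Hsd11b2, which shields the mineralocorticoid receptor from glucocorticoids (-0.59 ± 0.18), lost their calls without RM-HS run 1 (adjusted p = 0.13 and 0.454) and without RM-HS run 2 (0.135 and 0.381), and Aqp3 also without RM-HS run 3 (0.367). Hsd11b2 lay near background, exceeding 2 times the negative probe in 0 of 9 medullary and 4 of 9 cortical ROIs of RM-HS. Scnn1a, a subunit of the epithelial sodium channel, was higher (0.56 ± 0.14, adjusted p = 0.0018) and lost its call without RM-HS run 1 (0.0802) or run 3 (0.143).

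Of 8 osmolyte and hypertonicity genes tested, 1 was higher in RM-HS medulla, 2 were lower (Slc6a6 and Gpx3) and 5 were not called. Over all genes, 10.9% were called. Gpx3, counted on this list, encodes a secreted glutathione peroxidase and is described with the cortical genes below. Slc5a3, the myo-inositol transporter that hypertonicity turns on, was the third largest medullary difference of all genes, at 1210, 1413 and 1913 in RM-HS medulla and 90.5, 151 and 221 in cortex (3.40 ± 0.21, a ratio of 10.5). Sham levels were lower in both areas, 169, 333 and 577 in medulla and 46.0, 61.8 and 72.5 in cortex, and the Sham difference of 2.38 ± 0.21 was smaller by 1.02 ± 0.30 (adjusted p = 0.0436). That departure lost its call without any 1 of the RM-HS runs (adjusted p = 0.292, 0.0927 and 0.0837), without Sham run 1 or 2 (0.718 and 0.054) and under quantile normalization (0.461). Slc6a6, the taurine transporter, was lower in RM-HS medulla (-0.69 ± 0.19; adjusted p = 0.0613 without RM-HS run 1 and 0.135 without run 3) and not called in Sham (0.35 ± 0.19), with a called departure of -1.04 ± 0.28 that held without RM-HS run 2 but not without each of the other runs of either group. Its signal exceeded 2 times the negative probe in 0 of 9 medullary and 1 of 9 cortical ROIs of RM-HS, so that its levels there lay near background. Nfat5, the transcription factor of the hypertonic response, differed by 0.33 ± 0.18 in RM-HS (adjusted p = 0.299) and by 1.31 ± 0.18 in Sham, a departure of -0.99 ± 0.25 (adjusted p = 0.0108) that lost its call without RM-HS run 1 (0.0512) or run 3 (0.116).

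Proximal tubule genes set the cortex apart. All 16 convoluted tubule members tested were lower in RM-HS medulla (15 in Sham), the ROIs of 15 did not overlap between areas (4.26% of all genes lay lower in medulla without overlap), and the list's median difference was -2.24 in RM-HS and -2.11 in Sham. Of 11 straight tubule members 6 were lower and none was higher, against 5.28% of all genes lower and 5.66% higher. Gpx3, the secreted glutathione peroxidase made mainly by the kidney, was on neither proximal tubule list. It gave the largest difference of all genes: 32.5, 57.1 and 75.6 in medulla against 2169, 4802 and 6188 in cortex, a 75.8-fold excess in cortex (-6.25 ± 0.29, adjusted p = 1.89e-43). Miox, the enzyme that breaks down myo-inositol, was at 45.9, 54.5 and 65.2 in medulla and 422, 1047 and 1774 in cortex (-4.28 ± 0.22). Pck1, the rate-limiting enzyme of gluconeogenesis, was at 23.3, 27.8 and 33.8 against 294, 383 and 1041 (-3.97 ± 0.27).

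Pck1 in medulla lay close to the negative probe, so that its fold is limited by background. Other large cortical differences were those of Dao, the D-amino acid oxidase (-3.60), Gatm, the first enzyme of creatine synthesis (-3.28), the glutathione transferase Gsta3 (-3.09), the dicarboxylate transporter Slc13a3 (-2.87), Slc34a1 (-2.87 ± 0.20), the cystine transporter subunit Slc3a1 (-2.87), Rida (-2.84) and Cyp4a14, a fatty acid hydroxylase (-2.82). For Gatm, Gsta3 and Slc13a3, 0 of 9 RM-HS medullary ROIs exceeded 2 times the negative probe, and for Dao 2 of 9. The folds of these 4 genes are likewise limited by background. Gpx3 was further apart between areas in RM-HS than in Sham, by -1.56 ± 0.41 (adjusted p = 0.0156). The Gpx3 departure fell to -0.73 without Sham run 1 (adjusted p = 0.844), whose cortex was lower than that of the other Sham runs, and was not called without RM-HS run 1 (0.0726) or run 3 (0.16), or under quantile normalization (-0.72, adjusted p = 0.312). Pck1 (0.40 ± 0.38), Miox (-0.88 ± 0.32) and Slc34a1 (-0.67 ± 0.28) had no called departure from Sham (adjusted p = 1.0, 0.185 and 0.407).

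Of 5 genes of the distal convoluted and connecting tubule 3 were lower in medulla in both groups, against 5.28% of all genes in each. Slc12a3, the thiazide-sensitive salt cotransporter, was at 30.5, 34.7 and 39.1 in RM-HS medulla and 101, 163 and 279 in cortex (-2.26 ± 0.20), and its Sham difference was -2.28 ± 0.20. Kl, the co-receptor of the phosphate-lowering hormone FGF23, differed by -0.86 ± 0.18 and Slc8a1, the sodium-calcium exchanger, by -0.73 ± 0.15. Both lost their calls with 1 mean per run and area (adjusted p = 0.0746 and 0.0656).

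Markers of other cell types were called on some lists and not on others, against 10.9% of all genes called. None of 9 podocyte genes and none of 3 neutrophil and lymphocyte genes was called in RM-HS, with summed list levels of 307 to 341 in medulla and 315 to 363 in cortex for podocytes and 108 to 141 against 120 to 156 for the blood cells. Of 7 fibroblast and mesangial genes 3 were higher in RM-HS medulla, with a summed level of 355 to 557 there and 266 to 385 in cortex. These were Vim, the intermediate filament of mesenchymal and dedifferentiated tubule cells (1.19 ± 0.15), the smooth muscle gene Tagln (0.82 ± 0.19) and the collagen gene Col3a1 (0.47 ± 0.16), and the same 3 were called in Sham. Tagln lost its call without RM-HS run 2 (adjusted p = 0.129) and Col3a1 without any 1 of the RM-HS runs (0.25, 0.243 and 0.0682). Of 5 macrophage and antigen presentation genes only the complement gene C1qc was higher (0.57 ± 0.14), which it was not without RM-HS run 2 (adjusted p = 0.116). Of 5 endothelial genes 1 was higher, 1 was lower (Slc14a1, given above) and 3 were not called. The higher one, Plvap of fenestrated endothelium, differed by 0.47 ± 0.14 and lost that call without any 1 of the RM-HS runs (0.0769, 0.0693 and 0.125).

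The hemoglobin gene Hba-a1, a marker of red cells held in the tissue, set 1 run apart. In RM-HS medulla it was at 4995 to 8125 in the 3 ROIs of run 2 and at 875 to 1223 in the other 6, and in RM-HS cortex at 1010 to 1622 in run 2 and at 247 to 735 in the others. Its area difference was 1.71 ± 0.31 (adjusted p = 7.38e-06) with all runs and 1.37 without run 2 (0.00282). Its part in other results was not tested.

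Igfbp1 set the medulla apart in RM-HS by more than in Sham. It encodes a secreted binding protein of insulin-like growth factors that insulin represses and fasting, glucocorticoids and hypoxia raise. It was at 1137, 1478 and 1709 in RM-HS medulla and 111, 192 and 257 in RM-HS cortex, and at 44.9, 82.6 and 203 in Sham medulla and 34.5, 55.2 and 65.7 in Sham cortex. Every RM-HS medullary ROI thus lay above every ROI of the other 3 sets. The area difference was 2.92 ± 0.21 in RM-HS (7.59-fold, adjusted p = 3.12e-25) and 0.70 ± 0.21 in Sham, and the departure of 2.22 ± 0.30 was called (adjusted p = 2.03e-08). Run means of Igfbp1 were 1447, 1353 and 1536 in medulla and 170, 221 and 188 in cortex, so that each run showed the excess. The bases before the gene's start are shown because the motif in capitals, CAAAACAA, is the core of the insulin response element known from this promoter. It was found once here, on the strand shown, and on either strand in 523 of 27457 rat promoters of the same length (1.9%). The window is the 250 bases before the RefSeq gene start (GRCr8, chr14:86261027-86261276, plus strand), and a match is a description of letters and not a site shown to be bound.
Igfbp1: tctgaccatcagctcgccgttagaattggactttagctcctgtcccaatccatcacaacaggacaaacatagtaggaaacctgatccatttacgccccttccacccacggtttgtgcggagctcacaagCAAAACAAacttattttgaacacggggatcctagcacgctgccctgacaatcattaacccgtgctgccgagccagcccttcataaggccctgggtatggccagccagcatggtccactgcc

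Rasd1, a small Ras-like G protein first found as dexamethasone-induced, showed the largest departure from Sham of all genes. It was at 518, 691 and 876 in RM-HS medulla and 81.4, 112 and 136 in RM-HS cortex. In Sham the areas overlapped, at 42.9, 66.1 and 78.4 in medulla and 37.3, 61.2 and 72.0 in cortex, a difference of 0.08 ± 0.18 (adjusted p = 0.842). Its RM-HS difference was 2.59 ± 0.18 and the departure 2.50 ± 0.26 (adjusted p = 6.76e-14). Both RM-HS areas lay above both Sham areas with no overlap, the medulla far more so. The bases before its gene start held no TGACGTCA, the full cAMP response element. Of 13 glucocorticoid and circadian list members 3 were higher in RM-HS medulla (Rasd1, Igfbp1 and Zbtb16, 0.66 ± 0.15) and 1 was lower (Nr1d1, -0.55 ± 0.18), with a list median of 0.16. Among all genes tested, 5.66% were higher and 5.28% were lower. Rasd1 and Igfbp1 were the 2 members with a called departure from Sham. Zbtb16 lost its call without RM-HS run 2 (adjusted p = 0.0577), and Nr1d1 without any 1 of the RM-HS runs (0.572, 0.0538 and 0.0718).

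**Figure D2:**
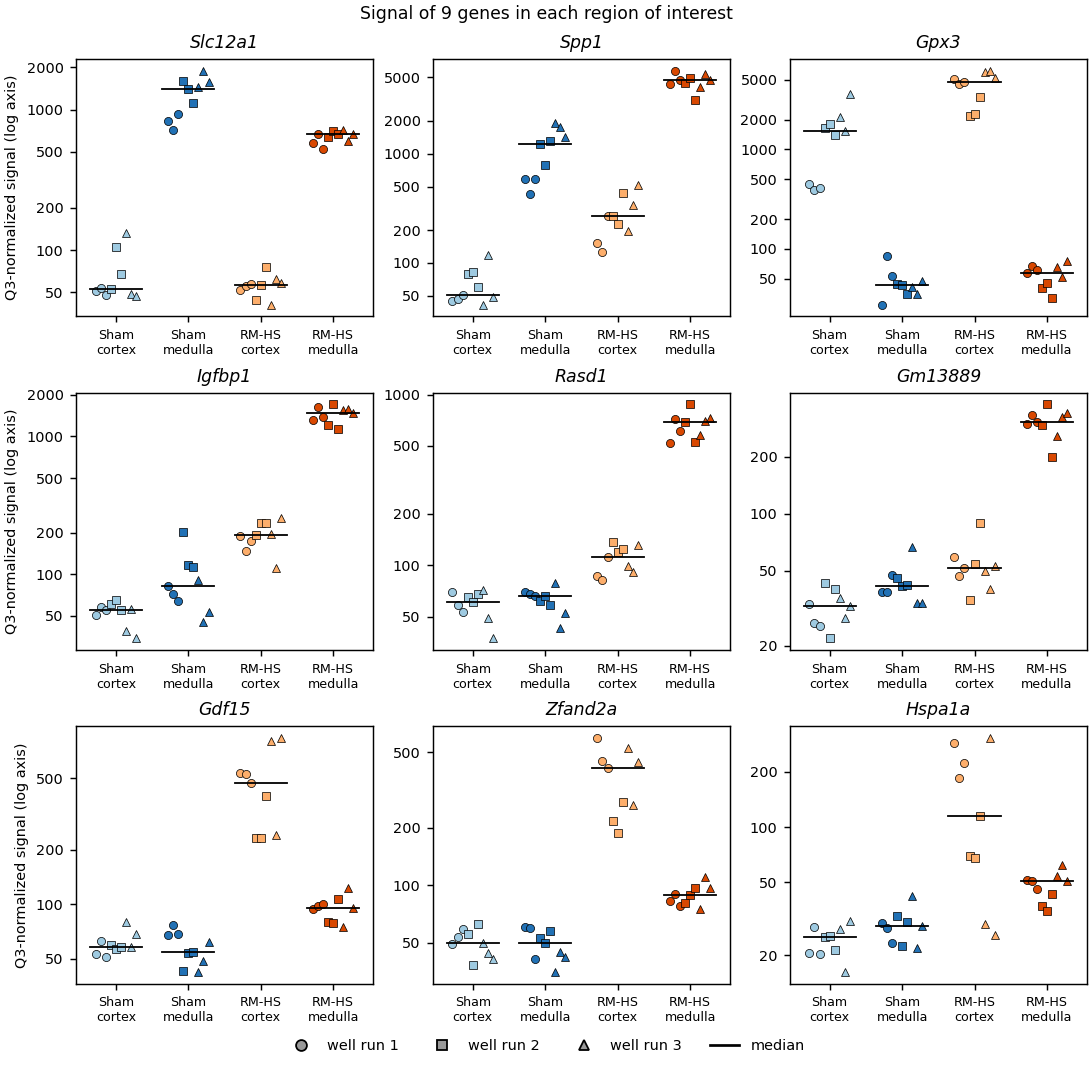
Points are single ROIs (9 per set) and bars their medians; the y axes are log scales of Q3-normalized signal, and symbols give the well run. Slc12a1 and Spp1 are high in the medulla of both groups and Gpx3 in the cortex of both, Igfbp1, Rasd1 and Gm13889 are high in RM-HS medulla, and Gdf15 and Zfand2a are high in RM-HS cortex, where Hspa1a varies with the run from 26.0 to 305.

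Further genes were higher in RM-HS medulla with a called departure from Sham. Gm13889 was at 200, 308 and 379 in RM-HS medulla and 34.7, 51.9 and 88.8 in cortex, a departure of 2.10 ± 0.30 (adjusted p = 7.52e-08). Glycam1, a mucin-like glycoprotein gene, was at 69.1, 118 and 288 against 13.9, 20.5 and 31.7, a departure of 2.25 ± 0.35 (9.48e-07). Its medullary run mean was 226 in run 2, the run with high Hba-a1, and 100 and 96.1 in the others, and the departure was 1.73 without run 2 (adjusted p = 0.00325). Its cortical ROIs lay at or near the negative probe, so that its fold is limited by background. Fam43a was at 179, 347 and 405 against 43.0, 55.6 and 67.8 (2.47 ± 0.13), and its Sham difference was 1.60 ± 0.13. Tsc22d1, a leucine zipper transcription regulator, was higher in RM-HS medulla (0.64 ± 0.21) and lower in Sham medulla (-0.94 ± 0.21), a departure of 1.59 ± 0.29 (8.56e-05), although its RM-HS ranges of 281 to 530 and 142 to 417 overlapped.

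Of 11 tubular injury and repair genes tested, 5 were higher in RM-HS medulla, 1 was lower and 5 were not called, against 10.9% of all genes called, and 2 were higher in Sham; the list median was 0.39 in RM-HS and -0.05 in Sham. Spp1, the secreted phosphoprotein osteopontin, was the most medullary of all genes in RM-HS, at 3110, 4727 and 5729 against 125, 267 and 517 in cortex (4.15 ± 0.28, 17.7-fold). It was nearly as medullary in Sham, at 427, 1223 and 1901 against 41.5, 51.0 and 119 (4.01 ± 0.28), with a departure of 0.14 ± 0.40 that was not called. S100a11, a calcium-binding protein gene, differed by 1.51 ± 0.19 in each group. Clu, the chaperone clusterin, was at 103, 116 and 153 against 48.7, 69.8 and 95.2 (0.73 ± 0.16), Anxa2 differed by 0.79 ± 0.17 and Timp1 by 0.73 ± 0.14, and none of these 3 was called in Sham. In RM-HS, Anxa2 and Timp1 lost their calls with 1 mean per run and area. The departure from Sham was called for Clu (0.79 ± 0.22, adjusted p = 0.0332) but not for Anxa2 (0.73 ± 0.25, 0.133) or Timp1 (0.61 ± 0.20, 0.0985). The area difference of Clu was not called without RM-HS run 2 (0.054). Its departure lost its call without RM-HS run 2 or 3 (0.361 and 0.124) and without Sham run 1 or 2 (0.197 and 0.28). Havcr1 (KIM-1), the proximal tubule injury marker, was at 41.1, 51.3 and 82.5 in medulla and 33.9, 45.4 and 58.8 in cortex, and its difference of 0.33 ± 0.17 was not called (adjusted p = 0.272). It was called under quantile normalization (0.45, adjusted p = 0.0266).

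Of 13 matrix and protease genes tested, 7 were higher in RM-HS medulla (5.66% of all genes), 1 was lower (5.28%) and 5 were not called, with a median of 0.80 beside 0.66 in Sham, where 7 were higher. Plau, the urokinase protease, was at 155, 232 and 285 against 40.5, 57.0 and 69.6 (2.04 ± 0.21), and its departure from Sham was 1.32 ± 0.30 (adjusted p = 0.00229). The departure of Plau was not called without Sham run 1 (0.0552) or run 2 (0.0505). Thbs1, a matricellular protein gene, was at 272, 354 and 832 against 77.4, 113 and 225 (1.75 ± 0.24), with no called departure. Adamts1, a matrix protease gene, differed by 0.93 ± 0.15 and departed from Sham by 0.92 ± 0.21, a call lost without Sham run 2 (0.0571) and with the negative probe as scale (0.148). F3, tissue factor, which starts coagulation, was the member lower in medulla, at 48.0, 54.9 and 65.3 against 95.6, 141 and 298 in cortex (-1.52 ± 0.18). Its departure of -1.04 ± 0.26 (adjusted p = 0.0105) was lost without RM-HS run 3 (0.355) and without Sham run 1 or 2 (0.0964 and 0.169).

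Of 20 immediate early genes tested, 10 were higher in RM-HS medulla, 4 were lower and 6 were not called, against 10.9% of all genes called. In Sham 9 were higher and none was lower, against 11.7%. Btg2, an antiproliferative gene, was at 479, 715 and 855 against 166, 194 and 275 (1.76 ± 0.17), the transcription factor gene Egr1 at 221, 278 and 348 against 71.3, 87.2 and 114 (1.61 ± 0.19), and Junb at 538, 564 and 710 against 126, 263 and 358 (1.40 ± 0.17). None of the 3 overlapped between areas. The stress transcription factor Atf3 lay the other way, at 79.7, 138 and 158 against 143, 303 and 436 in cortex, with slight overlap (-1.12 ± 0.19). Atf3 was not called between areas of Sham (0.13 ± 0.19), and its departure was -1.25 ± 0.27 (adjusted p = 0.00103). Maff, a small Maf protein gene, was likewise higher in cortex (-0.98 ± 0.16; departure -1.06 ± 0.23, adjusted p = 0.00146, not called without RM-HS run 1 at 0.0735). Jun (-0.54 ± 0.16) and Jund (-0.42 ± 0.14) were lower in medulla by less and lost those calls without RM-HS run 3 (adjusted p = 0.52 and 0.744). The RM-HS area difference of Maff was not called with 1 mean per run and area.

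Of 7 cytokine response genes tested, 4 were higher in RM-HS medulla (5.66% of all genes), none was lower and 3 were not called, with a median of 0.52 beside -0.10 in Sham. Stat3, the transcription factor of interleukin-6 signalling, was at 239, 277 and 341 against 104, 136 and 161 (1.13 ± 0.14), and its feedback inhibitor Socs3 at 64.2, 114 and 137 against 34.2, 48.6 and 66.9 (1.11 ± 0.17). Cebpd, an acute phase transcription factor, was at 105, 119 and 156 against 64.3, 68.7 and 91.2 (0.76 ± 0.14). Socs3 and Cebpd departed from Sham by 1.22 ± 0.24 (adjusted p = 0.000428) and 0.90 ± 0.19 (0.00134), and the departure of Stat3 was not called (0.55 ± 0.20, 0.197). Scaled to the negative probe, the departure of Cebpd was not called (0.0823). Irf1, the interferon response factor, was higher by 0.52 ± 0.14 and lost that call without RM-HS run 3 (0.105). Il6 itself was left out by the filter on low values. Gadd45g (1.62 ± 0.17) of the 8 p53 and cell death genes and Ddit4, an inhibitor of mTOR signalling (1.40 ± 0.16), of the 11 stress response genes were also higher in medulla. Ddit4 departed from Sham by 1.16 ± 0.23 (adjusted p = 0.000427) and Gadd45g by 0.94 ± 0.24 (0.0108), the latter not without RM-HS run 1 or 3 or Sham run 2 (0.0721, 0.131 and 0.28). Sesn2, a stress-induced sestrin, was lower (-0.66 ± 0.19), a call lost without RM-HS run 1 or 3 (0.0991 and 0.135).

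Some stress genes were higher in the cortex of RM-HS. Gdf15, a secreted stress cytokine, was at 74.6, 95.2 and 123 in RM-HS medulla and 233, 472 and 833 in RM-HS cortex, a 4.52-fold excess in cortex (-2.18 ± 0.19, adjusted p = 7.91e-20). Sham values were 42.3, 54.6 and 76.8 in medulla and 51.0, 58.2 and 80.3 in cortex, with a difference of -0.10 ± 0.19. The departure was -2.08 ± 0.27 (adjusted p = 2.19e-09), the most negative of all genes. Cortical ROIs of run 2 (233 to 395) and 1 ROI of run 3 (242) were the lowest of RM-HS cortex and still lay above the medulla. Zfand2a, a zinc finger gene induced by proteotoxic stress through heat shock factor, was at 75.2, 88.9 and 110 in medulla and 188, 411 and 593 in cortex (-1.97 ± 0.17), against 35.2, 50.1 and 60.8 and 38.5, 49.8 and 63.0 in Sham. Its departure was -1.93 ± 0.24 (adjusted p = 1.94e-09).

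Of 11 heat shock genes tested, Zfand2a among them, 6 were lower in RM-HS medulla, none was higher and 5 were not called, against 5.28% of all genes lower. None was called in Sham. The list median was -0.44 in RM-HS and 0.17 in Sham. With the scaling to the negative probe 3 were lower and 1 was higher, with a median of -0.10 against 0.30 for all genes, and with 1 mean per run and area 2 (Zfand2a and Hspe1) were lower. Hspe1, the mitochondrial chaperonin subunit, was at 41.5, 50.9 and 61.5 in medulla and 82.9, 110 and 187 in cortex (-1.21 ± 0.18), with a departure of -1.06 ± 0.25 (adjusted p = 0.00526) that was lost without RM-HS run 3 (0.383) or Sham run 2 (0.111). The co-chaperone gene Dnaja1 was at 137, 162 and 179 against 227, 256 and 382 (-0.74 ± 0.15). Hsph1 (-0.44 ± 0.14) and Bag3 (-0.40 ± 0.13), also chaperone partners, lost their calls without any 1 of the RM-HS runs (0.168, 0.216 and 0.0718 for Hsph1; 0.195, 0.105 and 0.162 for Bag3). Hsph1 lay near background, exceeding 2 times the negative probe in 1 of 9 medullary and 2 of 9 cortical ROIs of RM-HS.

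Hspa1a, the inducible HSP70, varied with the run. In RM-HS cortex it was at 184 to 286 in run 1, at 67.7 to 114 in run 2, and at 26.0, 29.6 and 305 in run 3, whereas RM-HS medulla held 34.8 to 62.5 in all runs. The areas overlapped, and the difference of -1.14 ± 0.29 (adjusted p = 0.00203) fell to -0.62 without RM-HS run 1 (0.487). Its departure from Sham, -1.39, was not called without RM-HS run 1 (0.755) or run 2 (0.107), or without Sham run 1, 2 or 3 (0.159, 0.171 and 0.123). Of the 11 heat shock promoters searched, 3 (Hspd1, Hspe1 and Hsph1) held the heat shock element, 3 units of GAA or its complement in alternating orientation with a pair of bases between them, on either strand within 250 bases of the gene start, and 164 of 27457 rat promoters did (0.597%). The 2 of these whose genes were lower in medulla are shown to let the element be seen, in RefSeq sequence (GRCr8, plus strand; Hspe1 chr9:64084077-64084326, Hsph1 chr12:10427118-10427367). Capitals mark the matches, which for Hspe1 are 2 that overlap. Zfand2a, Hspa1a, Dnaja1 and Bag3 held none in this window, which says only that these letters are not there.
Hspe1: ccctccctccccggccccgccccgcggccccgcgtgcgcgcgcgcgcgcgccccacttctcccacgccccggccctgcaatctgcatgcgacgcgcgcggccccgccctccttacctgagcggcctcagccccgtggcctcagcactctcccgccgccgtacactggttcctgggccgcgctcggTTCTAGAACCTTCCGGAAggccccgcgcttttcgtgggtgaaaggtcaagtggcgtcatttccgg
Hsph1: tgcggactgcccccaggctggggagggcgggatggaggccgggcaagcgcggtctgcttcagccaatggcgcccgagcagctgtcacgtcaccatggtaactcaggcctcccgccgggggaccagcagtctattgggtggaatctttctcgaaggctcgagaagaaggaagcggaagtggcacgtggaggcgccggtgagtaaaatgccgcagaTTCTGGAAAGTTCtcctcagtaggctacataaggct

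Of 12 NRF2 and oxidative stress genes tested, 3 were higher in RM-HS medulla, 5 were lower and 4 were not called, against 10.9% of all genes called (in Sham, 3 were higher and 3 lower). The metallothionein genes, which bind zinc and copper, were higher: Mt2 at 7134, 7881 and 10081 against 1194, 1505 and 2344 (2.35 ± 0.18) and Mt1 at 1128, 1329 and 1546 against 394, 523 and 799 (1.29 ± 0.14). Sod2, the mitochondrial superoxide dismutase, was at 1016, 1107 and 1617 against 202, 364 and 463 (1.86 ± 0.16), and its departure from Sham was 1.14 ± 0.22 (adjusted p = 0.000217; 0.0653 scaled to the negative probe). Sod1, the cytosolic enzyme, was lower in medulla, at 99.4, 116 and 158 against 317, 385 and 716 (-1.91 ± 0.19). Cat, catalase, was at 43.7, 52.0 and 64.9 against 129, 237 and 390 (-2.12 ± 0.21), a departure of -1.42 ± 0.30 (0.000977) that was lost without RM-HS run 3 (0.103). Sqstm1, an autophagy receptor induced by NRF2, was at 98.7, 131 and 140 against 198, 388 and 541 (-1.50 ± 0.16; departure -1.15 ± 0.22, adjusted p = 0.000201). The other lower members were Gclm, of glutathione synthesis (-1.07 ± 0.22), and Osgin1 (-0.83 ± 0.16). Gclm was not called with 1 mean per run and area. Osgin1 lay near background, exceeding 2 times the negative probe in 0 of 9 medullary and 3 of 9 cortical ROIs of RM-HS.

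The subunits of ferritin, the iron store, lay on opposite sides. Fth1, the heavy chain, was at 2281, 2532 and 3527 in medulla and 994, 1294 and 2558 in cortex, with overlap (0.90 ± 0.19), and Ftl1, the light chain, at 166, 193 and 210 against 371, 643 and 964 (-1.72 ± 0.18). Both were called in the same directions in Sham. Of the 7 heme and iron genes 3 were higher (Fth1, the copper oxidase gene Cp at 0.60 ± 0.17 and the iron transporter gene Slc11a2 at 0.47 ± 0.14) and 1 was lower. The share called over all genes was 10.9%. Fth1 lost its call with 1 mean per run and area (adjusted p = 0.193). Cp and Slc11a2 lost theirs without RM-HS run 1 (0.0829 and 0.126) or run 2 (0.382 and 0.298).

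**Figure D3:**
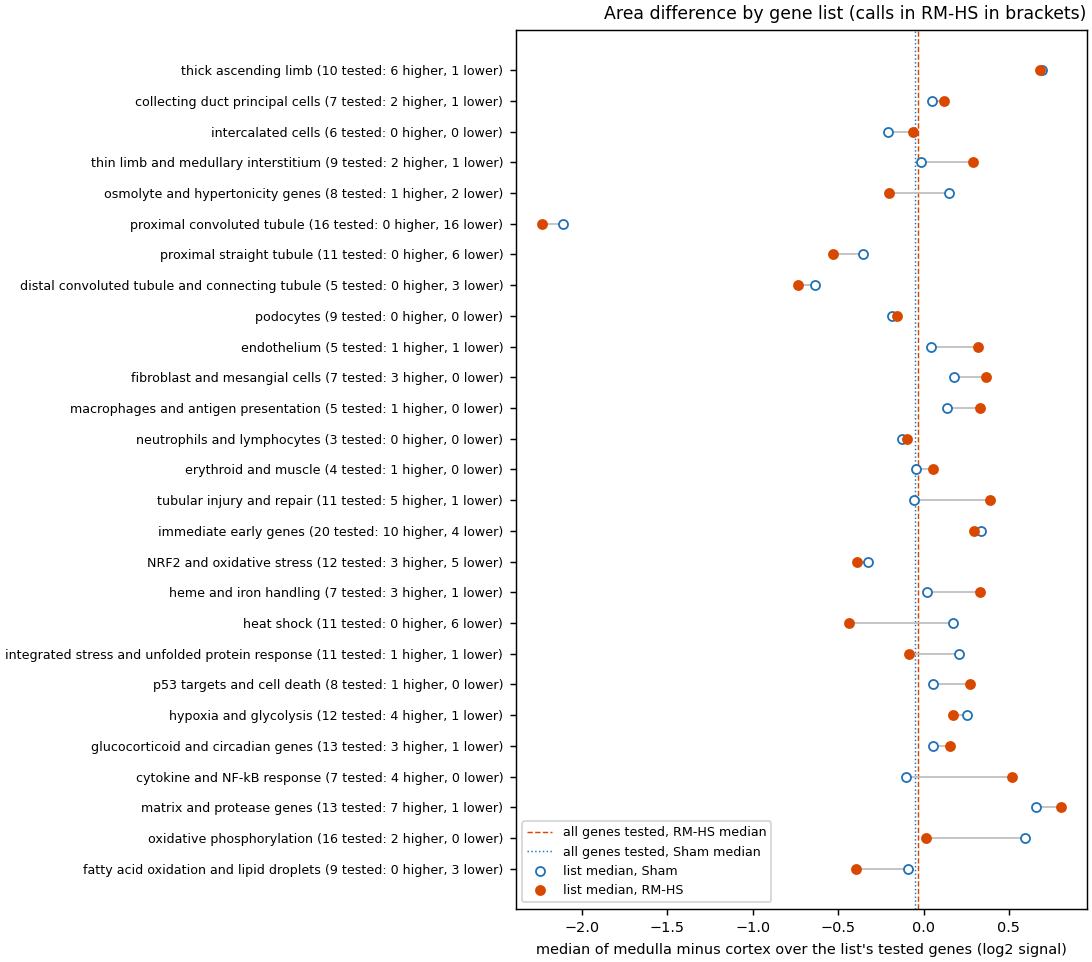
Dots give the median medulla minus cortex difference (log2 signal) over the tested genes of each of 27 lists, open for Sham and filled for RM-HS, with vertical lines at the median of all genes tested; brackets give the numbers tested and called in RM-HS. Proximal convoluted tubule genes lie far to the left at -2.24 and -2.11, thick ascending limb genes to the right at 0.68 and 0.69, and heat shock, oxidative phosphorylation and cytokine genes are among those where filled and open dots stand apart.

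Fewer energy metabolism genes were called higher in the medulla in RM-HS than in Sham, and the departure was called for few. Of 16 oxidative phosphorylation genes 11 were higher in Sham medulla, with a median of 0.60, and 2 were higher in RM-HS medulla (among them Atp5g1, 0.41 ± 0.10), with a median of 0.01 beside -0.03 for all genes. The shares of all genes higher in medulla were 6.39% in Sham and 5.66% in RM-HS. The departure itself was called for 2 of the 16, the ATP synthase subunit genes Atp5a1 (-1.03 ± 0.27, adjusted p = 0.0191) and Atp5c1 (-1.19 ± 0.27, 0.0024). Both departures were lost without RM-HS run 3 (0.655 and 0.0699) and without Sham run 2 (0.148 and 0.0565). Atp5g1 was not called without RM-HS run 1 (0.127). With the negative probe as scale the list median in RM-HS was 0.35 against 0.30 for all genes. Ppargc1a, the coactivator of mitochondrial biogenesis, was at 77.9, 96.9 and 147 in Sham medulla and 31.0, 56.4 and 79.1 in Sham cortex, but at 28.2, 36.3 and 41.9 in RM-HS medulla and 47.5, 53.8 and 64.5 in RM-HS cortex. Its difference was 0.93 ± 0.21 in Sham and -0.58 ± 0.21 in RM-HS (adjusted p = 0.051), with no overlap between the RM-HS areas, and the departure was -1.51 ± 0.29 (adjusted p = 0.00025). In RM-HS its signal lay near background, exceeding 2 times the negative probe in 1 of 9 medullary and 3 of 9 cortical ROIs. In Sham it did so in 9 of 9 and 5 of 9.

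Of 9 fatty acid oxidation and lipid droplet genes tested, 3 were lower in RM-HS medulla and 6 were not called, against 5.28% of all genes lower. The lower ones included the lipid droplet coat gene Plin2 (-1.15 ± 0.20) and the transcription factor gene Ppara (-0.65 ± 0.17). Ppara was not called without RM-HS run 3 (adjusted p = 0.0999) or scaled to the negative probe (0.134). It lay near background, exceeding 2 times the negative probe in 0 of 9 medullary and 3 of 9 cortical ROIs of RM-HS. Of 12 hypoxia and glycolysis genes 4 were higher in RM-HS medulla (Aldoa, Egln3, Slc2a1 and Hk1) and Ndrg1 was lower (-1.18 ± 0.19), and the same 5 genes were called in the same directions in Sham. The shares called over all genes were 10.9% in RM-HS and 11.7% in Sham. Egln3 was not called without RM-HS run 3 (0.0549), nor Slc2a1 without RM-HS run 2 or 3 (0.0627 and 0.093).

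Selenop and Sec14l1 were also among the largest departures from Sham. Selenop, the selenium carrier, was at 20.7, 30.3 and 38.5 in RM-HS medulla and 129, 204 and 267 in cortex, against 29.5, 52.6 and 89.9 and 47.0, 75.5 and 309 in Sham (departure -1.74 ± 0.31, adjusted p = 4.06e-05). In RM-HS medulla it lay near background, with 0 of 9 ROIs over 2 times the negative probe. Sec14l1 was at 142, 210 and 244 in Sham medulla and 64.6, 75.5 and 82.3 in Sham cortex, and at 54.5, 66.1 and 75.1 and 53.03, 65.2 and 78.3 in RM-HS, so that its Sham difference of 1.46 ± 0.16 stood at -0.04 ± 0.16 (departure -1.49 ± 0.23, adjusted p = 5.66e-07). Of the 1030 genes called in Sham, 6 were called in the opposite direction in RM-HS. These were named after their values were seen: ccdc198, Cited2, Cyb5b, Jund and Tns1, higher in Sham medulla and lower in RM-HS medulla, and Tsc22d1, the reverse. Cyb5b, the cytochrome b5 of the outer mitochondrial membrane, was at 145, 179 and 217 in Sham medulla and 71.9, 88.4 and 116 in Sham cortex, and at 69.4, 82.4 and 90.1 in RM-HS medulla and 99.2, 107 and 131 in RM-HS cortex. It overlapped between areas in neither group, with a departure of -1.34 ± 0.18 (adjusted p = 2.22e-08). Of the 46 departures from Sham named here, 9 remained called with 1 mean per run and area: Rasd1, Glycam1, Igfbp1, Gm13889, Gdf15, Zfand2a, Ppargc1a, Ppp1r1a and Cyb5b.

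The area difference after both injuries was set beside that after each alone, in 9 medullary and 9 cortical ROIs of RM and in 6 and 9 of HS. All HS ROIs lay on another plate, together with 1 Sham run. By well position, HS run 3 held no medullary ROI. HS medullary ROIs were also shallower, with 66598 to 1157391 reads (median 316815) beside a median of 1564807 in RM-HS medulla. The comparisons share the RM-HS ROIs. From RM the difference departed for 7 genes (0.0793%), 5 larger (0.0566%) and 2 smaller (0.0227%), while 173 genes had an unadjusted p under 0.05. Gm13889 was larger by 1.89 ± 0.30 (adjusted p = 9.79e-06), with medians of 85.5 in RM medulla and 58.2 in RM cortex, and was the only 1 of the 7 that remained called with 1 mean per run and area. Gadd45a, a growth arrest gene, was larger by 1.56 ± 0.24 (7.05e-06): its medians were 356 in RM-HS medulla and 236 in RM-HS cortex, and 118 and 276 in RM. Csrp3, which encodes the muscle LIM protein, was smaller by -1.66 ± 0.29 (0.000141), with a median of 128 in RM medulla and from 32.4 to 37.1 in RM cortex and both RM-HS areas. Hmga1, a chromatin protein gene, was smaller by -1.09 ± 0.21 (0.0027; not called without RM-HS run 2, 0.301, or RM run 3, 0.0588). The other 3, Ephx1 (1.30 ± 0.26), Zfand2a (1.08 ± 0.24) and Epb41 (0.87 ± 0.19), lost their calls without RM-HS run 2 (0.301, 1.0 and 0.305) and without RM run 2 (0.238, 1.0 and 0.111). For Zfand2a, which was lower in RM-HS medulla, larger means less negative than in RM. Ephx1 and Epb41 also lost theirs without RM-HS run 1 (0.254 and 0.13), Zfand2a and Epb41 without RM-HS run 3 (both 0.0888) or RM run 1 (1.0 and 0.954).

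From HS the difference departed for 79 genes (0.895%), 66 larger (0.748%) and 13 smaller (0.147%), and scaled to the negative probe 26 were called, 65.4% of them larger (83.5% before). Rasd1 was larger by 2.32 ± 0.27 (adjusted p = 2.54e-10), with medians of 68.5 and 52.0 in HS medulla and cortex, and Igfbp1 by 2.32 ± 0.32 (5.1e-08), with medians of 219 and 127. Tsc22d1 was larger by 2.37 ± 0.31 (1.12e-08), with medians of 72.7 in HS medulla and 213 in HS cortex. Gdf15 (-1.87 ± 0.28), Hspa1a (-1.81 ± 0.44) and Zfand2a (-1.70 ± 0.26) were the most negative, with HS medians in both areas of 40.6 to 85.7 for Gdf15 and Zfand2a. Hspa1a lost this call without RM-HS run 1 (adjusted p = 0.432), HS run 1 (0.0751) or HS run 2 (0.102). Of these 6 departures from HS, only that of Rasd1 remained called with 1 mean per run and area. The number called from HS was 262 without HS run 1 and 37 without HS run 2, and 34 without RM-HS run 1 and 50 without RM-HS run 2. Leaving out HS run 1 or HS run 2 left HS medullary ROIs of a single run. For Rasd1 and Igfbp1 the differences in RM were 1.81 and 1.83, beside 2.59 and 2.92 in RM-HS, and neither departure from RM was called (adjusted p = 0.623 and 0.201).

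**Figure D4:**
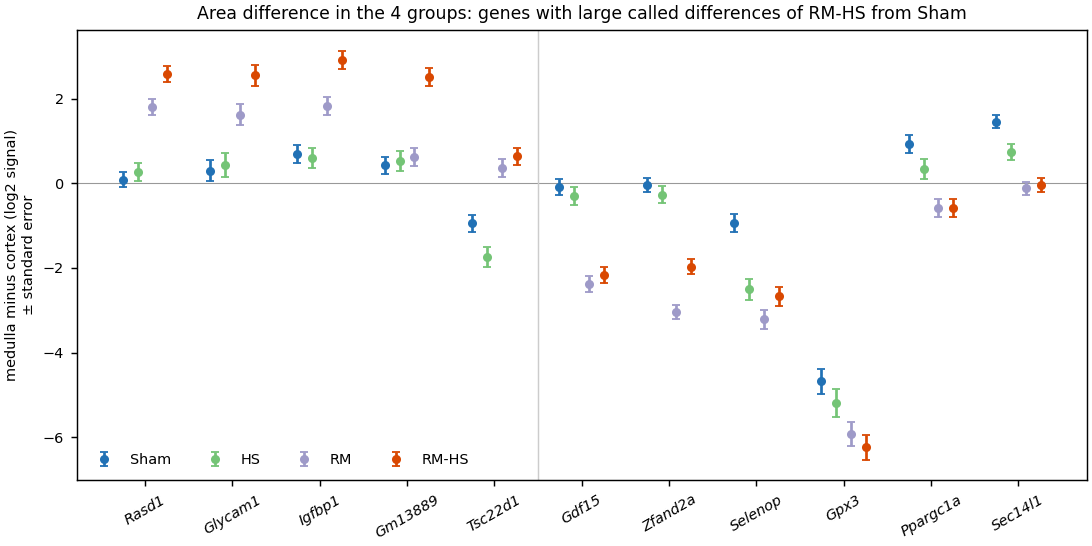
Points are medulla minus cortex differences (log2 signal) with standard errors in Sham, HS, RM and RM-HS, for 11 genes from the largest and smallest called departures of RM-HS from Sham. For Rasd1, Gdf15 and Zfand2a the Sham and HS points lie between -0.31 and 0.27 while the RM and RM-HS points lie beyond 1.8 in size.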

How the data were processed

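GeoMx profiles of rat kidney sections were read from the table of upper-quartile (Q3) normalized signal that the authors deposited, with 9271 genes and 1 negative probe in 132 ROIs. Per the labels' protocols, ROIs were chosen by hand in 4 areas, hybridised with mouse whole-transcriptome probes and read on a NovaSeq6000. Builds GRCh38 and hg38 stand, per the submitters' processing notes, with no role given, and the counting software is not given in the sources used. The signal was tested as log2(signal + 1). A gene entered the test if 10% or more of all ROIs exceeded 2 times their negative probe, so that 8827 genes were tested and 444 were not. Python 3.11.15, pandas 2.3.3, R 4.3.3, limma 3.58.1 and statmod 1.5.0 were used. One limma fit (lmFit, eBayes with trend) over 131 ROIs estimated 16 means of group and area with plate as a term and the well run as a random block (correlation 0.1318). The single ROI of another plate was left out. P-values are two-sided and adjusted by Benjamini-Hochberg over all 8827 genes. Replicates are ROIs, some of which share an animal.

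Genes named are, among those called, the 12 largest of each sign for RM-HS, 6 of each sign for the departure from Sham and 3 of each sign for those from RM and HS, up to 3 members of each of 27 lists, and Slc12a1, Igfbp1, Rasd1, Havcr1, Spp1, Slc34a1 and Aqp2. Further called list members and all departures from RM were named after their values were seen. Some genes that meet these rules are not reported here. The members and lists were chosen with earlier results of these data known. Promoters were the 250 bases before each gene start in RefSeq (GRCr8). Of the 8827 symbols, 8048 are current rat symbols there.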

Additional observations from a re-analysis of the deposited data

Results flagged for a closer look

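Among 274 sets of ROIs tested for a single ROI far from the others, 11 had one, where chance gives about 1 in 20. In RM-HS cortex the highest ROI stood apart for Cebpd (91.2), Dnaja1 (382.4), Gm13889 (88.8), Hsph1 (75.1), Ppp1r1a (96.6) and Slc2a1 (65.9), and the lowest for G6pc (116.3). In RM-HS medulla the highest ROI stood apart for Gatm (36.5), Gclm (150.1), Rida (92.6) and Slc5a3 (1913).

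The medulla minus cortex difference itself differed between groups, by the limma test of that difference adjusted over all genes, for the following named genes (log2, RM-HS minus the other group, 9 ROIs for each group and area except 6 in HS medulla). Against Sham it was larger for Rasd1 (2.50), Glycam1 (2.25), Igfbp1 (2.22), Gm13889 (2.10), Tsc22d1 (1.59), Plau (1.32), Socs3 (1.22), Ddit4 (1.16), Sod2 (1.14), Slc5a3 (1.02), Pla2g15 (0.96), Gadd45g (0.94), Adamts1 (0.92), Cebpd (0.90), Mt2 (0.87), Btg2 (0.86), Zfp36 (0.86), Clu (0.79) and Mt1 (0.72). Against Sham it was smaller for Gdf15 (-2.08), Zfand2a (-1.93), Selenop (-1.74), Gpx3 (-1.56), Ppargc1a (-1.51), Sec14l1 (-1.49), Tns1 (-1.44), Cat (-1.42), Ppp1r1a (-1.40), Hspa1a (-1.39), Cyb5b (-1.34), Cited2 (-1.33), Jund (-1.29), Atf3 (-1.25), Atp5c1 (-1.19), Sqstm1 (-1.15), ccdc198 (-1.09), Hspe1 (-1.06), Maff (-1.06), F3 (-1.04), Slc6a6 (-1.04), Atp5a1 (-1.03), Ftl1 (-0.999), Nfat5 (-0.99), Slc3a1 (-0.96), Slc13a3 (-0.93) and Dnaja1 (-0.81). Of these 46 departures from Sham, 24 lost their call when some 1 well run was left out. Against RM it was larger for Gm13889 (1.89), Gadd45a (1.56), Ephx1 (1.30), Zfand2a (1.08, less negative than in RM) and Epb41 (0.87) and smaller for Csrp3 (-1.66) and Hmga1 (-1.09). Against HS it was larger for Tsc22d1 (2.37), Rasd1 (2.32) and Igfbp1 (2.32) and smaller for Gdf15 (-1.87), Hspa1a (-1.81) and Zfand2a (-1.70).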

How the results depend on the processing

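Counts of genes called are given for medulla against cortex in RM-HS, in Sham, and for the difference of both between RM-HS and Sham, RM and HS, in that order, beside 966, 1030, 164, 7 and 79. Quantile normalization gave 1809, 1588, 355, 17 and 179. Scaling to the negative probe gave 2846, 5986, 152, 4 and 26, with 93.5% and 98.7% of the calls in RM-HS and Sham higher in medulla (51.8% and 54.8% before) and the median of all genes at 0.30 and 0.46. Using only cortex and medulla ROIs with the well run as a fixed block gave 3095, 2640, 892, 190 and 288. A spread for each area gave 2069, 2601, 549, 59 and 581. With 1 mean per well run and area 413, 257, 17, 1 and 5 were called. Without the well run block 98 remained called from Sham and 4 from RM. Leaving out each well run in turn gave 616 to 648, 535 to 760, 66 to 188, 3 to 8 and 34 to 262. The difference from Sham gave 66 without Sham run 2, 105 without Sham run 1 and 74 without RM-HS run 3. In Sham 535 were called without run 2 and 623 without run 3. In RM-HS 616 were called without run 1 and 637 without run 2. The causes were not tested. Of named single results, 1676 kept direction and side of the threshold in settings that keep all runs, 164 lost it, 15 passed it, and none reversed. With 1 well run left out, 585 kept both and 162 lost the call. The planned count test on reads was not run. The labels give no replicate numbers that pair ROIs, so areas were compared within runs only through the fixed well run block above. The 3 rats per group, ROIs not tied to rats, and a mouse probe set limit all values, and signals near the negative probe understate folds.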
